A study of Mus musculus with 18 samples.

Results

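Replication-independent histone variant genes were described by their nascent transcription in murine ES cells, with members taken by symbol from the deposited table of protein-coding genes. All 10 genes asked for (H3f3a, H3f3b, H2az1, H2az2, Macroh2a1, Macroh2a2, H2ax, Cenpa, H1f0 and H1f10) were found among 21859 genes. A table of promoter upstream transcripts (PROMPTs), which run antisense from the region just before a gene's start, held rows for 6 of them. The cells were E14 ES cells that carried the plant F-box protein osTIR1, grown with LIF and inhibitors of MEK and GSK3. The untagged cells had no further change, while SPT16_AID_V5 Clone1 and Clone2 also carried a mini-AID and V5 tag at the C terminus of SPT16, a subunit of the histone chaperone FACT, so that the auxin 3-IAA triggers its degradation. Each of these lines was treated for 24 h with 3-IAA or with 0.1% ethanol, which gave 6 groups of 3 libraries, 18 in all. The labels give 3-IAA as 500 nM and the labelling agent 4-thiouridine as 500 mM, while the methods give both in micromolar units. Each tagged line is a single clone, and the study calls repeats of a line technical replicates. RNA made during a 5 min pulse of 4-thiouridine was purified and sequenced (TT-seq).

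Histone genes fall into a pair of groups. Replication-dependent genes lie in clusters, lack introns, and are transcribed mainly in S phase to package newly copied DNA. Replication-independent variants are single genes that are transcribed through the cell cycle, mostly with introns and polyadenylated mRNA, and their proteins replace the canonical histones at particular places. FACT, whose subunit SPT16 was tagged here, moves histones out of and back into nucleosomes as RNA polymerase passes. H2ax has features of both groups, since its mRNA can end either in the histone stem-loop or in a poly(A) tail.

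The value used for each gene is the authors' mean of counts normalized by library, taken across all libraries whether treated with ethanol or with 3-IAA. Columns of the authors' own comparison were not used, so no change upon SPT16 depletion is given here. A mean over all libraries has no replicate error in the table, and the spread between libraries, and so whether neighbours in an order differ beyond it, cannot be given. Differences below are therefore descriptions of levels, with no test. To compare genes, each mean was divided by the length of the gene's merged exons (the exon level, per kb of exon). Division by the whole gene from start to end gives the span level. As histone genes share sequence and the authors kept unique alignments, the mean was also divided by the number of 50-base exon windows that occur once in the genome, per 1000 windows (the unique level). The reads were paired, and a pair can align uniquely through either mate. The unique level may therefore overcorrect genes with many repeated windows. With all libraries pooled, exon levels ran from 2222 for Klf4 to 12345 for Zfp42 over 9 ES cell markers. The highest over 5 fibroblast markers was 8.58. Markers of primitive endoderm reached 117 (Gata4) and those of trophectoderm 59.4 (Cdx2), none above the median gene. As the mean mixes both treatments, it cannot show whether the depleted cells kept the marks of ES cells. The paper reports reduced transcription of pluripotency factor genes, Nanog among them, and signs of differentiation in depleted cells at this time point. The lowest mean above 0 was 0.0216 for a gene and 0.0266 for a PROMPT.

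The upstream sequences of the H2A.Z genes are shown because both start at the same base in the RefSeq and Gencode annotations and because the pair differed most with the length used. Each run is the 250 bases before the start, 5′ to 3′ on the gene's strand, from the RefSeq table for GRCm38.p6. Capitals mark any of 6 searched motifs on either strand, which were the CCAAT box, the TATA box written TATAAA, the GC box written GGGCGG, the E box written CACGTG, the cAMP response element written TGACGTCA and the cell cycle element (CHR) written TTTGAA.
H2az1, chr3:137864237-137864486, plus strand: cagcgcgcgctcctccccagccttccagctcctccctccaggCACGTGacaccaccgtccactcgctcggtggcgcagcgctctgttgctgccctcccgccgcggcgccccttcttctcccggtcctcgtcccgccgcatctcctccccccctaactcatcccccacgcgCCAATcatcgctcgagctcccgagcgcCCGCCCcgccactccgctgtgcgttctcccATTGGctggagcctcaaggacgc
H2az2, chr11:6444444-6444693, minus strand: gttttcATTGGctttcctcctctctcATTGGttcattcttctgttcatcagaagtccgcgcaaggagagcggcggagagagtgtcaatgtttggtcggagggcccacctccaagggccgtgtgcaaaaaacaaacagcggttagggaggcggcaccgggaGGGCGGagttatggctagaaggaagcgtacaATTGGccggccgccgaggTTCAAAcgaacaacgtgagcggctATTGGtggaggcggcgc
The capitals in H2az1 are 2 CCAAT boxes, 1 GC box (GGGCGG) and 1 E box (CACGTG). Those in H2az2 are 4 CCAAT boxes, 1 GC box and 1 TTTGAA. The GC content was 71.2% for H2az1 and 57.2% for H2az2, with 28 and 19 CpG dinucleotides.

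All 10 variant genes were transcribed above the median gene, with exon levels from 170 to 4502 and a median of 1628. The median over 20140 genes with reads and a known position was 120. Of the 10 genes, 6 were among the top 10% of all genes by exon level, and by span level 7 were. The order by exon level ran from H3f3b, H2ax, H2az2, H3f3a, Macroh2a1, H2az1, Macroh2a2 and Cenpa down to H1f0 and H1f10, a range of 26.4 times. H2ax, H2az2 and H3f3a, with exon levels of 2688, 2647 and 2581, lay close together in that order. Macroh2a1 and H2az1, with 1666 and 1589, did so too.

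**Figure D1:**
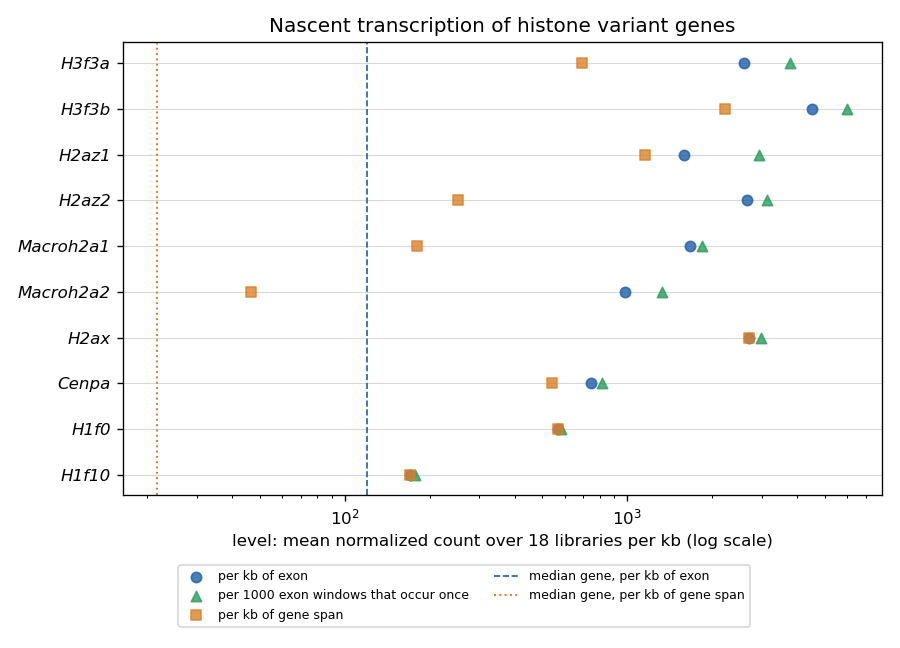
Level of each of the 10 variant genes on a log axis, as the authors' mean normalized count over 18 libraries divided by kb of exon (circles), by the number of exon windows that occur once in the genome, per 1000 windows (triangles) or by kb of gene span (squares). Each point is 1 mean with no error bar. All circles lie right of the median gene by exon level (dashed line, 120), from 170 for H1f10 to 4502 for H3f3b, and all squares lie right of the median by span level (dotted line, 21.7).

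H3f3a and H3f3b encode the same protein, histone H3.3, which is placed into active genes by the HIRA complex and into repeats and telomeres by DAXX and ATRX. H3f3b (ENSMUSG00000016559) lies on chromosome 11 of GRCm38 from 116021912 to 116027962 and had an authors' mean of 13399 normalized counts. Its exon level of 4502 was above that of 98.8% of genes, 37.4 times the median gene. H3f3b thus had the highest exon level of the 10 variants. H3f3a (ENSMUSG00000060743), on chromosome 1 from 180800832 to 180813943, had an authors' mean of 9043 and an exon level of 2581, above 95.9% of genes. Of the summed exon level of both genes, H3f3b held 63.6%, and it held the larger part by span level (76.3%) and by unique level (61.4%) as well. Of the exon windows of H3f3a, 25.4% occurred elsewhere in the genome, and of H3f3b 19.9% did. A single read of that length could not be aligned uniquely there, but a pair still could through its other mate.

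H2A.Z, encoded by H2az1 and H2az2 (older symbols H2afz and H2afv), flanks the start sites of active genes and marks bivalent promoters in ES cells. H2az1 (ENSMUSG00000037894), on chromosome 3 from 137864487 to 137866922, had an authors' mean of 2823 and an exon level of 1589, above 90.8% of genes. H2az2 (ENSMUSG00000041126), on chromosome 11 from 6427229 to 6444443, had an authors' mean of 4322 and an exon level of 2647, above 96.1% of genes. By exon level H2az1 held 37.5% of the pair. The order within this pair depended on the length. By span level H2az1 held 82.2%, since H2az2 spans 17.2 kb and H2az1 spans 2.44 kb. By unique level it held 48.4%, because 40.6% of the exon windows of H2az1, the largest share of the 10 genes, occurred elsewhere in the genome, against 0% of those of H2az2.

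MacroH2A carries a large macro domain beyond its histone part and is linked to the inactive X chromosome and to stably silent genes. Macroh2a1 (ENSMUSG00000015937, older symbol H2afy) is the longest of the 10 genes, on chromosome 13 from 56073619 to 56136361. It had an authors' mean of 11346 and an exon level of 1666, above 91.4% of genes. For Macroh2a2 (ENSMUSG00000020086, H2afy2), on chromosome 10 from 61738665 to 61784147, the authors' mean was 2128 and the exon level 979, above 82.9% of genes. Macroh2a1 was therefore the higher of the pair, with 63.0% of the summed exon level, 58.2% of the unique level and 79.4% of the span level. Macroh2a2 had the lowest span level of the 10 genes, 46.8 per kb over 45.5 kb, above 58.5% of genes.

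H2A.X is the variant that is phosphorylated around DNA breaks by ATM and related kinases. H2ax (ENSMUSG00000049932, older symbol H2afx) has 1 exon on chromosome 9 from 44334694 to 44336077. Its authors' mean was 3720, and its exon level of 2688 was above 96.2% of genes. With 1 exon, the span level was the same, 2688, and it was the highest span level of the 10 genes. CENP-A replaces histone H3 in the nucleosomes of centromeres. Cenpa (ENSMUSG00000029177), on chromosome 5 from 30666777 to 30674830, had an authors' mean of 4367, and an exon level of 745, above 77.9% of genes, over 5.86 kb of merged exons. By span level it was above 97.5% of genes.

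H1f0 and H1f10 (older symbol H1fx) encode linker histones, which bind the DNA between nucleosomes, and H1.0 is known for its rise in cells that stop dividing and differentiate. They were the lowest of the 10 by exon level. H1f0 (ENSMUSG00000096210), with 1 exon on chromosome 15 from 79028450 to 79030504, had an authors' mean of 1173 and an exon level of 571, above 72.8% of genes. H1f10 (ENSMUSG00000044927), with 1 exon on chromosome 6 from 87980421 to 87981637, had an authors' mean of 207 and an exon level of 170, above 53.8% of genes. H1f0 was 3.35 times H1f10 by exon level and by span level, and 3.29 times by unique level. Without a division by length, H1f10 had a mean above 43.3% of genes, and it was the only member below the median.

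The variants were set beside 65 replication-dependent histone genes, of which 64 had reads, to see where each class drew its transcription. Among H3 genes, both H3.3 genes had a higher exon level than each of 12 replication-dependent H3 genes, whose median was 1415 and whose highest was H3c6 with 2408. Among H2A genes, H2ax and H2az2 were above all 18 replication-dependent genes, with a median of 422 and a maximum of 2220 for H2ac15. Linker histones had the opposite order, as H1f0 and H1f10 lay below all 5 replication-dependent H1 genes, which ran from 746 to 10277 for H1f1. Of the summed exon level, the variants held 33.7% of H3 (Cenpa included), 49.0% of H2A and 3.34% of H1.

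The orders of H3 and H2A genes did not hold by unique level, which may overcorrect genes with many repeated windows because the reads were paired. Only 47.5% of the exon windows of replication-dependent H3 genes and 55.5% of those of H2A genes occurred once in the genome, against 96.2% for H1 and 90.7% over the variants. By unique level, over the 9 H3 and 9 H2A genes with at least 100 such windows, H3c6 reached 9633 and H2ac15 reached 5319, above every variant of their class. The variants then held 26.2% of H3, 46.6% of H2A and 3.18% of H1. For H3 and H2A these sums leave out the replication-dependent genes with fewer windows, so the shares are not directly comparable with those by exon level. The order of the H1 genes was the same by unique level, with both variants below all 5. The orders within classes were not worked out by span level. By that level H3f3a was above 98.2% of genes and H2az2 above 90.8%, while the median percentile of the replication-dependent genes was 98.6. Over all 65 genes the median exon level was 799, that of H2bc11, and the highest was 11199 for H2bc18. Of these 65 genes, 3 were above H3f3b and 12 were below H1f10 by exon level. Among those 12, H2ac19, H2ac23, H2ac24, H2bc23 and H2bc24 had 0 exon windows that occur once in the genome. For H2ac18 and H4c17, 3.72% and 10.2% of windows occurred once, and for the rest of the 12 at least 76.1% did. Where few windows occur once, a low level cannot be read as low transcription. Elsewhere a level per kb also depends on the annotated exon length. H2bc21, with an exon level of 45, had 2571 exon windows, while H2bc18 had 332.

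**Figure D2:**
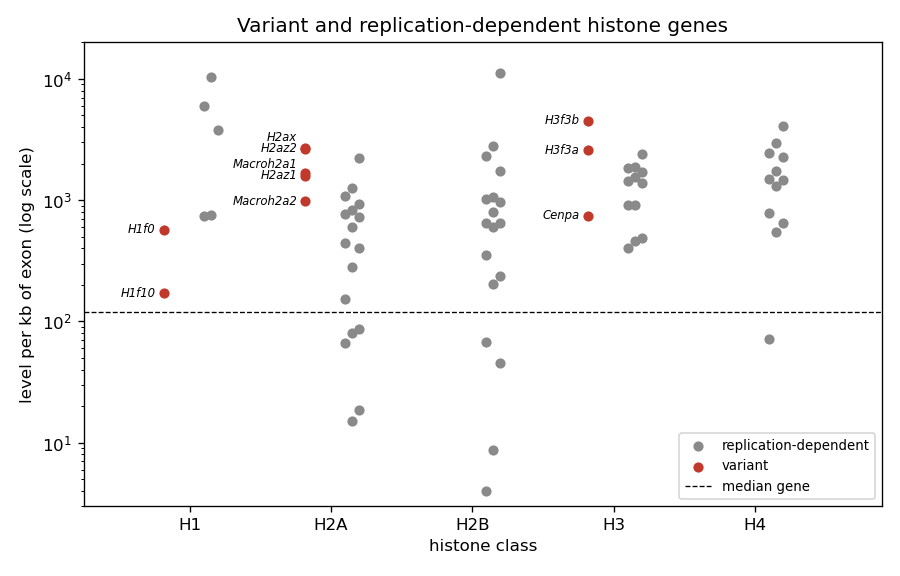
Exon level (log axis) of the 10 variant genes (red, named) and of replication-dependent histone genes (grey) by histone class, each point 1 gene and 1 mean over 18 libraries. H2aw, listed at 0, is not drawn. H3f3a and H3f3b lie above the grey H3 points (highest 2408), and H1f0 and H1f10 lie below the grey H1 points (lowest 746).

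Of other histone genes, 15, most of them variants known mainly from germ cells or particular tissues, were looked for and 13 were found. H2ap, H2al3, H2ab1 and H2ab3, which are testis variants of H2A or its short relatives, were listed at 0. Windows that occur once were not counted for these genes, so a 0 cannot be read as no transcription. H2aj, an H2A variant with an exon level of 709, was the highest, and with H4f16 (367) and H2bc1 (237) it was above the median gene. H2bc1, a testis H2B gene, is counted among the 65 genes as well. The oocyte linker histone H1f8 had an exon level of 1.86.

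The factors that place or remove the variants were all transcribed, as were Atm and Mdc1, which phosphorylate or read H2A.X. Each of these 21 genes had an exon level above the median gene, from 136 for Srcap to 2548 for Ino80, with a median of 788. For H3.3, the 8 genes had a median exon level of 789, with Atrx at 1339 and Cabin1 at 1294 and with Hira, the core of the HIRA complex, lowest at 316. For H2A.Z, the 7 genes ranged from Srcap, the ATPase that inserts it, to Ino80, an ATPase linked to its removal, and Anp32e, a chaperone that removes H2A.Z, was at 1391. Hjurp, the chaperone of CENP-A, had an exon level of 1574, while Cenpa itself had 745. Oip5 and Mis18a, which prepare centromeres for loading, had exon levels of 756 and 299. By span level, 20 of the 21 were above the median gene. Atm and Mdc1, the kinase for and the reader of phosphorylated H2A.X, had exon levels of 788 and 640.

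PROMPTs are short-lived antisense transcripts that the nuclear exosome usually degrades, and nascent RNA captures them before this. Over 23257 PROMPTs with reads the median of the authors' mean was 0.815. The PROMPT of H3f3b had a mean of 17.2, that of Cenpa 15.6 and that of H2az2 14.6, each above at least 87.6% of PROMPTs. The PROMPTs of H3f3a (2.05), Macroh2a1 (1.70) and Macroh2a2 (0.819) were lower, and that of Macroh2a2 was about equal to the median. Of the 2 H3.3 genes, H3f3b was thus among the higher 3 and H3f3a among the lower 3. With no replicate error and no known window position, this is a description of the order alone. Of all PROMPTs with reads, 3712 had a mean of at least 10, as did 3 of the 6. All 6 were above the median PROMPT, but only 3 were when the median was taken over PROMPTs with a mean of at least 1.

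Relative to their genes, most of these PROMPTs were low. Taking a PROMPT as 1000 bases, its level was 0.0795% of the gene's exon level for H3f3a, 0.0837% for Macroh2a2 and 0.102% for Macroh2a1. For H3f3b it was 0.382%, for H2az2 0.55% and for Cenpa 2.09%. The median over 13706 genes with both values was 1.38%, and 5 of the 6 members were below it. Among the 7053 genes with an exon level within the range of the 10 variants the median was 0.478%. H2az2 and Cenpa were above that value and the other 4 were below it.

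**Figure D3:**
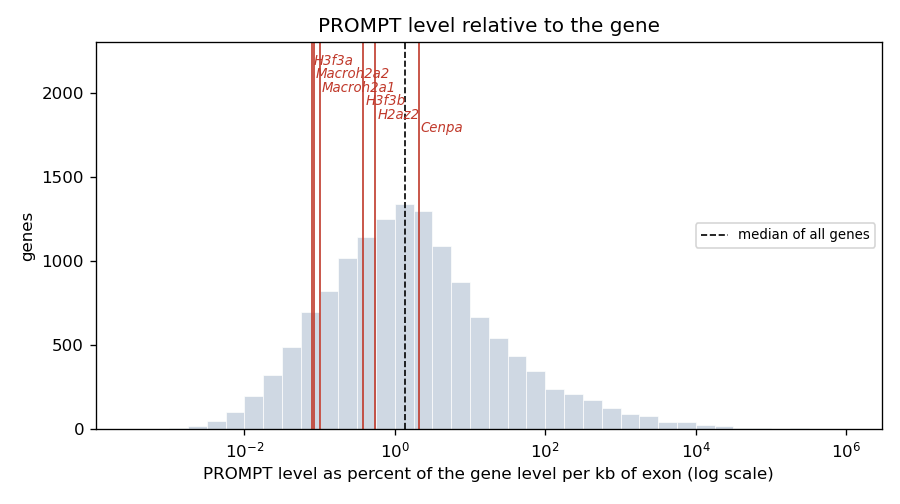
PROMPT level as a percentage of the gene's exon level (log axis) for 13706 genes, as a histogram of the number of genes, with red lines for the 6 variant genes with a PROMPT row. The dashed line is the median of all genes (1.38%). Only Cenpa, at 2.09%, lies right of it, and H3f3a, Macroh2a2 and Macroh2a1 lie near 0.1%, at 0.0795%, 0.0837% and 0.102%.

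The position of the PROMPT windows is not given in the table. In the Gencode vM21 annotation, the 1000 bases before the start of H3f3b, H2az2, Macroh2a1, Macroh2a2 and Cenpa overlap no other gene. Those of H3f3a lie within H3f3aos, an antisense transcript on chromosome 1 from 180813776 to 180816859, which runs in the direction of the PROMPT. Each of the 4 members with no row for a PROMPT has an annotated antisense gene in that window, which was Gm43403 for H2az1, Gm48853 for H2ax, Gm49544 for H1f0 and Gm5577 for H1f10. The share of all genes with such an antisense gene was not counted, and a link to the missing rows was not tested. H3f3a has a PROMPT row although H3f3aos covers its window. On the member's own strand, the window of H2ax also overlaps the protein-coding gene Dpagt1 by 207 bases, and that of H1f10 overlaps the miRNA gene Gm47286 by 104 bases. The RefSeq start of H3f3b lies 3458 bases inside the Gencode gene. The RefSeq and Gencode starts also differed for Macroh2a1 (811 bases), H3f3a (338), Macroh2a2 (283) and Cenpa (109), but not for H2az2. For H1f0 and H1f10 they differed by 238 and 155 bases. Where the starts differ, the window and its neighbours depend on the start that was used.

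Promoter sequences were found for 9 of the 10 genes in the RefSeq table, and not for H2ax. Each covers 250 bases before and 50 after the start, and motifs were counted on both strands. CCAAT, the box bound by NF-Y, was present in 6 of the 9 (Cenpa, H2az1, H2az2, H3f3a, H3f3b and Macroh2a2), and in 37.4% of all 32851 promoters. GGGCGG, the GC box bound by Sp1, was present in 7, all but H3f3b and Macroh2a2, and in 35.7% of all promoters. TATAAA was present in H3f3b alone of the 9, and in 13.6% of all promoters. CACGTG was present in H2az1 alone (7.15% of all promoters), TTTGAA in Cenpa and H2az2 (17.9%), and TGACGTCA in none (1.79%). In the 250 bases upstream the median GC content of the 9 was 71.2%, against 52.4% for all promoters, with Cenpa lowest at 48.8% and H3f3a highest at 77.2%. H3f3a and H3f3b, which encode the same protein, thus differed in this window, with 4 GC boxes and 1 CCAAT box upstream of H3f3a, and 4 CCAAT boxes, 1 TATAAA and no GC box upstream of H3f3b.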

How the data were processed

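TT-seq libraries were made from 18 samples. Per the methods, adapters were removed by the authors (Trim Galore), unique STAR alignments to mm10 were kept, and featureCounts assigned them by strand. The submitters' processing notes also list HTSeq, deepTools and DESeq2, run by the authors. Versions are not given in the sources used here. The deposited signal, baseMean, is the authors' mean over libraries of counts divided by DESeq2 size factors, in Gencode vM25 genes or PROMPTs. The other 4 value columns of each table hold the authors' comparison of SPT16-depleted with control libraries (log2 fold change, its standard error, p-value and adjusted p-value) and were not used. Without values per library, no groups were compared and no test was run. The depth of single libraries is unknown here, and intervals are not given.

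Gene identifiers were matched to Gencode vM21 on GRCm38, where 21817 of 21859 had a position. Whether counting took exons or whole genes is not stated. Across 15007 genes with more than 1 merged exon and a mean of at least 10, the mean scaled with exon length to the power 1.03 and with span to the power 0.0659 (least squares on logs, a description), and exon length was used. Windows of 50 bases were matched exactly to the chromosomes on both strands, a step tested on simulated data, as the read length is not given in the sources used here. They were counted singly, although the methods describe paired reads. A level per kb assumes even coverage. The members and lists were chosen with earlier results of these data known. All members, the variant placement factors and other variants, and the middle and highest replication-dependent genes were to be named, with annotated neighbours, and 1 of the factors is not reported here by name. The comparison by histone class, the genes that lead each class and the unique level were chosen after values were seen. The tables of eRNAs and distal sites, which give no coordinates, were not used. Computation ran in Python 3.11.15 (numpy 2.4.6, pandas 2.3.3, matplotlib 3.10.9).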

Additional observations from a re-analysis of the deposited data

How the results depend on the processing

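The count of variants above the median gene was 10, and 9 without a length or among genes with a mean of at least 1 or 10, where H1f10 was below. Their median percentile was 91.1, 97.6 by span, 79.7 without a length, 89.8 and 88.3 among genes with a mean of at least 1 and 10, and 94.7 by unique windows, an alternative chosen after seeing the data. The H3f3b share was 63.6%, 76.3% by span, 59.7% without a length and 61.4% by unique windows. For H2az1 these were 37.5%, 82.2%, 39.5% and 48.4%, and for Macroh2a1 63.0%, 79.4%, 84.2% and 58.2%. The median percentile of replication-dependent genes was 79.3, 98.6 by span, 53.4 without a length and 92.4 by unique windows over 46 genes. Variant placement factors above the median gene, with Atm and Mdc1 counted in, numbered 18 to 21. Members with a PROMPT above the median numbered 6, 3 among PROMPTs with a mean of at least 1 and 5 among PROMPTs of listed genes, with median percentiles of 75.6, 47.8 and 70.4. The count with a low PROMPT to gene ratio was 5 or 6, and CCAAT was found in 6 promoters and in 5 without the bases after the start. Protein identity was not run. No replicate could be left out. No paired analysis was possible because each table used here gives 1 mean over all libraries.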
